A study of Mus musculus with 12 samples.

Results

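Acute phase proteins are secreted proteins whose genes are switched on within hours of tissue damage or infection. The 8 genes described here were Lcn2, Serpina3n, Saa1, Saa3, Ptx3, Hp, Cp and A2m, and they were represented by every probe set of the array whose only annotated gene symbol was one of these names. This rule gave 15 probe sets, of the 20380 on the array that name 1 gene, for 8 of 12393 genes. Cp had 7 probe sets, Saa1 had 2 and each of the other genes had 1. All 15 passed the filter on low values, which kept 16555 probe sets for testing.

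The series asked how injury to the mouse spinal cord changes the RNA present and the RNA bound to polysomes, which are messenger RNAs carrying several ribosomes. There were 12 Affymetrix arrays in 4 groups of 3 biological replicates: polysome-bound RNA from injured cord, polysome-bound RNA from sham-operated cord, total RNA from injured cord and total RNA from sham-operated cord. All mice were wild-type C57BL/6 females aged 10 weeks, with no transgene or deletion. Injured mice had the cord exposed by laminectomy and cut through 80% of its width, whereas sham mice had the laminectomy alone; the sample titles call these sham cords naive. A 2.5 cm piece of cord around the lesion was taken 9 hours after the operation in both cases. A small part of each homogenate gave total RNA and the rest was run on a sucrose gradient for polysome-bound RNA, and labelled cRNA was made from 3 µg of polysome-bound RNA or 5 µg of total RNA. The tissue is a mixture of cord cells and any blood cells in it, so fewer cells of a type and less RNA per cell cannot be told apart.

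In the liver, interleukin-6 and related cytokines act through the gp130 receptor and the transcription factor STAT3, and interleukin-1 acts through NF-kB and C/EBP factors, to raise many acute phase genes. In the central nervous system, Lcn2 and Serpina3n are widely used markers of reactive astrocytes, and Lcn2, Saa3 and Ptx3 are also made by myeloid and endothelial cells. The products of the genes described here bind iron carriers, inhibit proteases, act on innate immune cells, or capture haemoglobin and copper.

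The stretches of DNA just upstream of the start sites are shown because many acute phase genes share inducers and the injury changes given below ran mostly in one direction. RefSeq promoter sequence of mouse build GRCm38.p6 was matched for 6 of the 8 genes, and Hp and A2m were not matched. Each line gives the 250 bases before a start listed by RefSeq, 5′ to 3′ on the gene's strand, with capitals marking each match to the C/EBP letters TTNNGNAA on either strand.
Lcn2, chr2:32387740-32387989, minus strand: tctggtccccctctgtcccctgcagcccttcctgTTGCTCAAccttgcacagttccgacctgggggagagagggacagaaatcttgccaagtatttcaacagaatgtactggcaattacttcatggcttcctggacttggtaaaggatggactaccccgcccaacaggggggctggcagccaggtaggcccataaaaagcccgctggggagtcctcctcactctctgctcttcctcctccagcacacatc
Serpina3n, chr12:104406458-104406707, plus strand: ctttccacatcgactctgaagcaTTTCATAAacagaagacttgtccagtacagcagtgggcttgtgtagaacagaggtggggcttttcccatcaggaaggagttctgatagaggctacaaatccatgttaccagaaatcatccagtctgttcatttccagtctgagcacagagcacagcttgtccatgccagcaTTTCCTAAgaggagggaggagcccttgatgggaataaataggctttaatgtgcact
Saa1, chr7:46742981-46743230, minus strand: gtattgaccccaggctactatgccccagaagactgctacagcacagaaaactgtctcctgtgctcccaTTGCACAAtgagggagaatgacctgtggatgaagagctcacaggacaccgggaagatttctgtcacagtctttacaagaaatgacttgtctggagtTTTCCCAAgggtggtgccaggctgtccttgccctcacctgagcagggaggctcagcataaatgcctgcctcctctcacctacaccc
Saa3, chr7:46715677-46715926, minus strand: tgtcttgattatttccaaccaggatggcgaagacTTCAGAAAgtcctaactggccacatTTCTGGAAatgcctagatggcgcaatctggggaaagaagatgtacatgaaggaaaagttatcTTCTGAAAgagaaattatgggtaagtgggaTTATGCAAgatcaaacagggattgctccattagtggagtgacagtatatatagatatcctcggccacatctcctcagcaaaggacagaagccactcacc
Ptx3, chr3:66219637-66219886, plus strand: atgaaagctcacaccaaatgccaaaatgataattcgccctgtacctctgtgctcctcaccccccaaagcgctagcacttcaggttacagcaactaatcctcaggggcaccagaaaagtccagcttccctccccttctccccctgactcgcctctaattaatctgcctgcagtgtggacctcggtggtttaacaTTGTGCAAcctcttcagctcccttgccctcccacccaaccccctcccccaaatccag
RefSeq's span of a gene can begin upstream of the start used here: 62 of the 250 bases lay inside the annotated span of Serpina3n and 201 inside that of Saa1, and the Saa3 window lay wholly inside, 3689 bases from the upstream edge of the gene. Saa3 held 4 matches, Serpina3n and Saa1 held 2 each, and Lcn2 and Ptx3 held 1 each. The match nearest the start lay 50 to 57 bases before it in Ptx3 and 49 to 56 bases before it in Serpina3n, while the single match of Lcn2 lay 209 to 216 bases upstream. Each of the 2 annotated Cp starts also had 1 match. The C/EBP letters occur in 36.8% of the 32851 promoters in the table, and a match is a description, not a site. The STAT letters TTCNNNGAA, found in 7.02% of all promoters, and a strict form of the NF-kB motif, found in 7.25%, were in none of the windows of these 6 genes. Looser forms of either motif were not searched, so sites of another form may be present.

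Some features of the arrays bear on every value below. On the deposited log2 scale the array medians averaged 7.18 ± 0.06 on polysomes after injury, 7.25 ± 0.01 on polysomes after sham surgery, 7.78 ± 0.02 in total RNA after injury and 7.76 ± 0.01 in total RNA after sham surgery (SD, n = 3 each). The fractions were therefore not on a common level, and the absent controls, 27 bacterial probe sets that should find no mouse RNA, moved with them: the highest of these averaged 6.44, 6.46, 6.85 and 7.04 in the same order of groups. The 3′ minus 5′ difference of Gapdh, a measure of RNA integrity, was 2.83 ± 0.27 on polysomes after injury against 0.87 ± 0.03 after sham surgery, and 1.40 ± 0.22 in total RNA after injury against 0.23 ± 0.05 after sham surgery (SD, n = 3 each). That of Actb was 3.26 ± 0.48 against 1.68 ± 0.10 on polysomes. In total RNA the Actb values were closer, 1.80 ± 0.07 after injury against 1.46 ± 0.07 after sham surgery. These differences had exact two-sided permutation p = 0.1 each, the smallest that 3 arrays against 3 allow, and the part of RNA integrity in the results was not tested. The labelled tissue was checked by its markers, and all 11 measured neuron markers and all 7 measured oligodendrocyte markers were above every absent control on all arrays. Replicate 2 of injured polysome RNA stood apart for these genes, being the highest of its group for 15 of 15 probe sets, and replicate 1 of sham polysome RNA was the highest of its group for 12 of 15. The main results that rest on them are given without them as well. When limma gave each array a weight by how closely it followed its group, injured polysome replicates 1 (0.22) and 2 (0.41) had the lowest. The other arrays had weights of 0.87 to 2.01.

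In total RNA, 14 of the 15 probe sets were higher in injured than in sham cord at a Benjamini-Hochberg adjusted p under 0.05 in limma, a linear model fitted across all probe sets, and none was lower, also at an unadjusted p under 0.05 (0 of 15). All 8 genes had at least 1 such probe set. Among all tested probe sets 37.4% were higher and 22.4% were lower. The median log2 change was 1.51 over the 15 probe sets and 0.08 over all those tested. Every injured array lay above every sham array for 14 of the 15, against 46.0% of all tested probe sets. On polysomes 10 of the 15 were higher after injury (11 at an unadjusted p) and none was lower (0 at an unadjusted p), with 11.8% of all tested probe sets higher and 27.0% lower. The median change there was 0.90, against -0.05 over all. For these 10 every injured array also lay above every sham array, which held for 15.5% of all tested probe sets. The scaling of the arrays moved the background. Of all calls, 62.5% were rises in total RNA as deposited, 51.0% after quantile normalization of the 12 arrays and 60.1% after centring. On polysomes those shares were 30.4%, 49.2% and 53.7%, and 10, 12 and 13 of the 15 probe sets were higher.

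**Figure D1:**
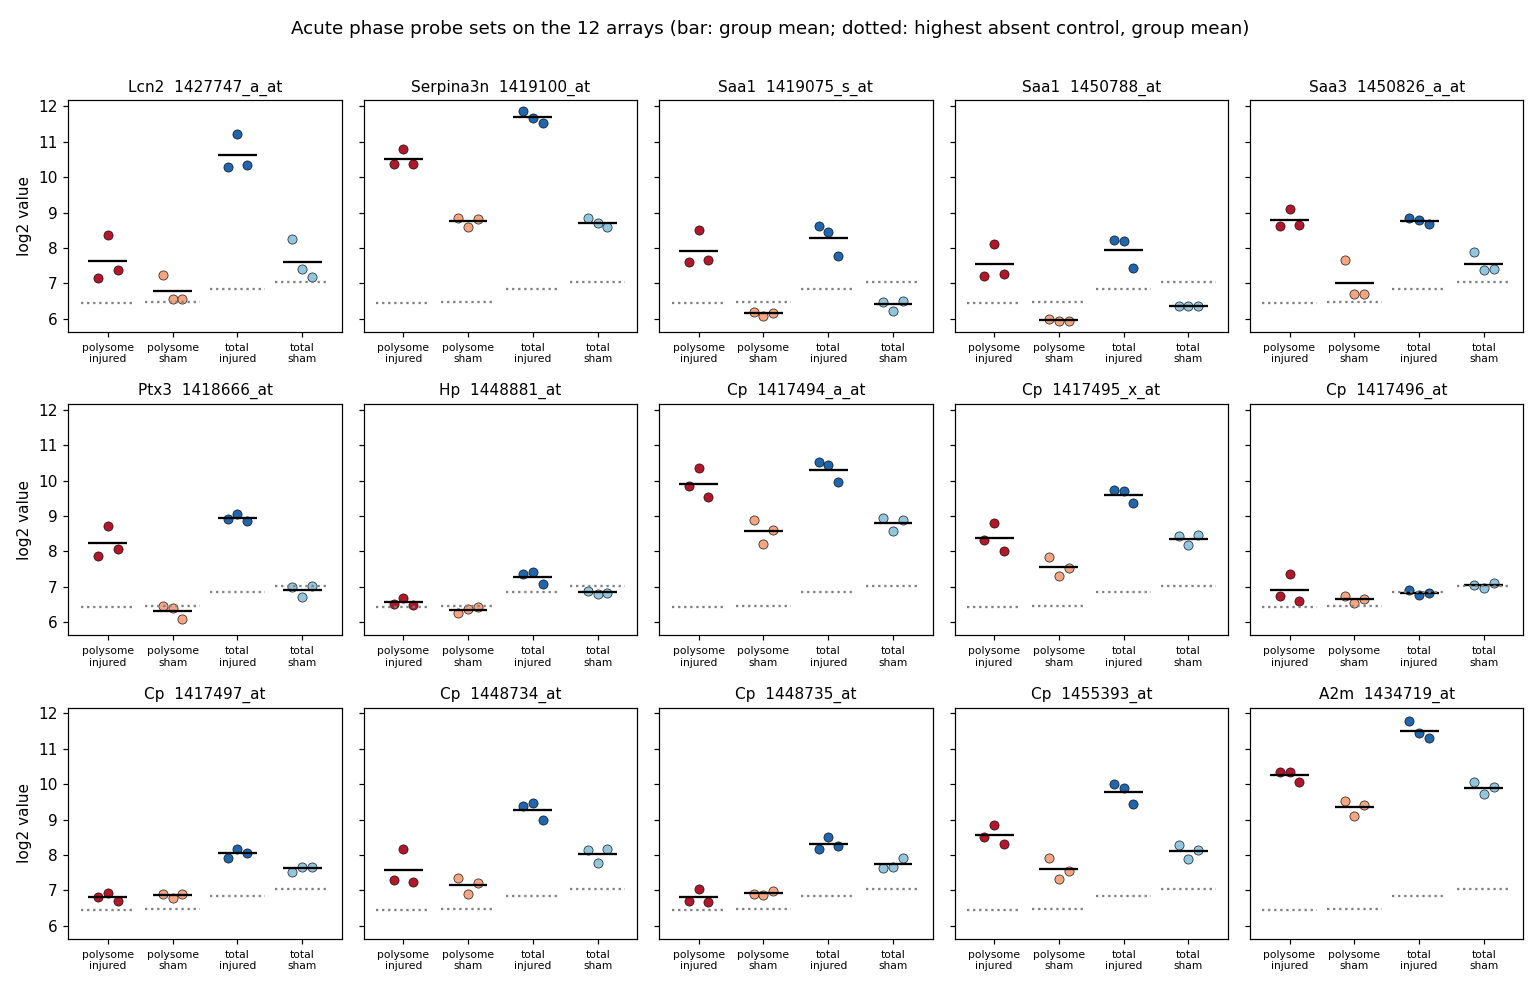
The deposited log2 value (vertical axis) of each of the 15 probe sets on the 12 arrays, with injured polysome, sham polysome, injured total and sham total RNA side by side. Bars are means of 3 arrays and dotted lines the mean of the highest absent control in the group. Both Saa1 probe sets and Hp lie at or under the dotted line in sham cord, and Lcn2 in injured total RNA lies between 10.29 and 11.23.

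Lcn2 (lipocalin 2, which binds bacterial siderophores and so withholds iron) had one of the highest rises of all probe sets in total RNA and a smaller difference on polysomes. In total RNA its log2 value was 10.29, 11.23 and 10.35 in injured cord, against 8.26, 7.41 and 7.17 in sham cord. Every injured array was above every sham array, with sham replicate 1 well above its partners. The rise of 3.01 (SE 0.33, limma adjusted p = 8.9e-06) is 8.06-fold and was the fourth highest of the 16555 probe sets. On polysomes the value was 7.15, 8.37 and 7.38 in injured cord, against 7.22, 6.57 and 6.55 in sham cord. These groups overlapped, since sham replicate 1 lay above the lowest injured array. The Lcn2 values of sham cord were close to the absent controls. They lay 0.80, 0.04 and 0.11 above the highest of these on polysomes, and 1.22, 0.38 and 0.13 above in total RNA. The difference of 0.85 (95% interval 0.14 to 1.57) had a limma adjusted p of 0.058 and did not pass. Leaving out 1 array at a time moved it between 0.49 and 1.09, and it passed in 4 of those 12 fits. These were the fits without injured polysome replicate 1 (1.09), sham polysome replicate 1 (1.07), injured total replicate 2 and sham total replicate 1, and the last 2 left the difference at 0.85. Without injured polysome replicate 2 it was 0.49. It also passed after quantile normalization over the 12 arrays (0.87), quantile normalization within fractions (0.92) and centring (0.94). With the replicate number as a block for all groups it passed too, at an unchanged 0.85 (limma adjusted p = 0.0477). That block joins injured and sham arrays of equal number, which come from different mice. With operation and number together as a random block it did not pass.

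The injury change of Lcn2 on polysomes was smaller than that in total RNA, with a difference of -2.16 on the log2 scale (SE 0.47, 95% interval -3.17 to -1.14, limma adjusted p = 0.0022). That was the most negative such difference of the 16555 probe sets. It passed in 12 of 12 fits that left out an array, between -2.53 and -1.86. It was -2.24 after quantile normalization over the 12 arrays, -1.96 after quantile normalization within fractions and -2.05 after centring, and passed in all 3. Within injured cord, Lcn2 averaged 7.63 ± 0.65 on polysomes and 10.62 ± 0.52 in total RNA (SD, n = 3 each), a difference of -2.99 (limma adjusted p = 8.8e-07). Within sham cord the averages were 6.78 ± 0.38 on polysomes and 7.61 ± 0.57 in total RNA, a difference of -0.83 (limma adjusted p = 0.033). Over all tested probe sets the median polysome-minus-total difference was -0.44 in injured cord and -0.35 in sham cord, so relative to it Lcn2 differed by -2.55 and -0.48. In order of level, injured total RNA stood first, injured polysome RNA and sham total RNA overlapped, and sham polysome RNA was lowest on average. The sham difference did not pass after quantile normalization over the 12 arrays (-0.30), after centring (-0.34), without sham polysome replicate 2 or 3 (-0.72 each), or without sham total replicate 1 (-0.51).

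Serpina3n, a serine protease inhibitor of the antichymotrypsin family, rose in both fractions. In total RNA it had log2 values of 11.87, 11.66 and 11.53 in injured cord, against 8.85, 8.70 and 8.58 in sham cord. The groups were far apart and the replicates close together. The rise was 2.97 (SE 0.12, limma adjusted p = 2.6e-09), or 7.86-fold. On polysomes it had 10.38, 10.79 and 10.38 in injured cord, against 8.85, 8.58 and 8.81 in sham cord. The groups were again separate, and the rise was 1.77 (SE 0.12, limma adjusted p = 2.4e-07), or 3.40-fold. The polysome change was smaller than the total RNA change, with a difference of -1.21 on the log2 scale (SE 0.17, limma adjusted p = 0.00012), and this held in 12 of 12 fits without 1 array, from -1.34 to -1.12. In sham cord Serpina3n did not differ beyond its error between polysomes and total RNA (0.04, 95% interval -0.22 to 0.30), while in injured cord polysome RNA was lower, with a difference of -1.17 on the log2 scale (limma adjusted p = 3.3e-07). After centring the sham difference was 0.53 and passed (limma adjusted p = 0.000265). Relative to the median probe set it was at 0.39 in sham cord and -0.73 in injured cord. The order of levels was injured total, injured polysome and then the overlapping sham groups.

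**Figure D2:**
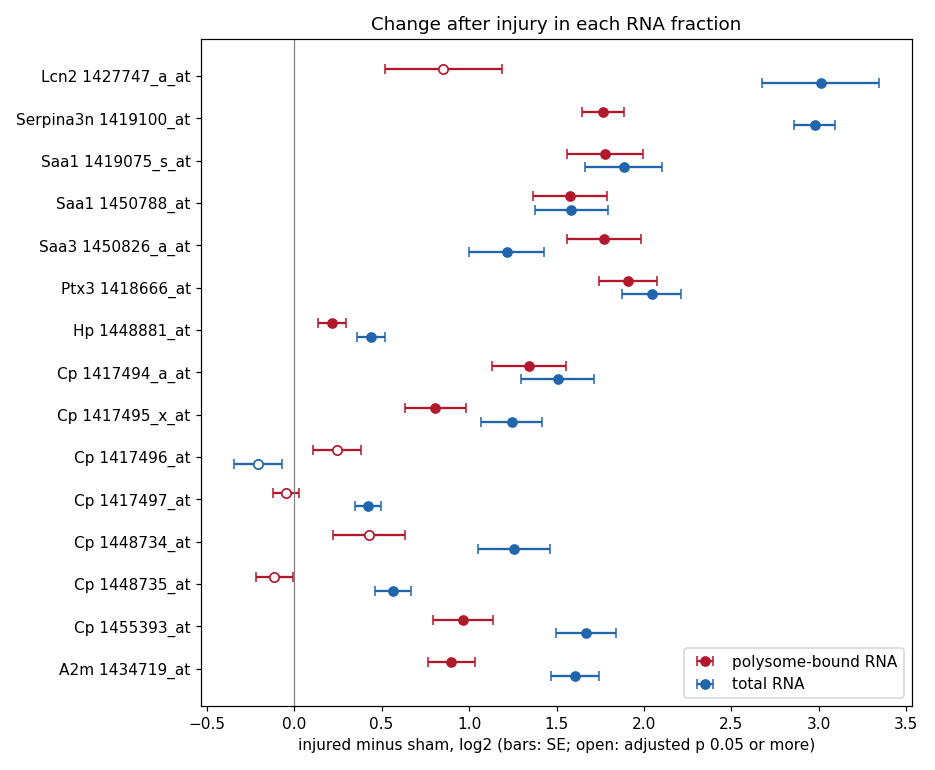
Injured minus sham difference (log2, horizontal axis) of each probe set on polysomes and in total RNA, with bars for the limma standard error and open circles where the adjusted p was 0.05 or more. Lcn2 has 0.85 on polysomes and 3.01 in total RNA, and Serpina3n has 1.77 on polysomes and 2.97 in total RNA. For Saa1 and Hp in both fractions and for Ptx3 in total RNA no sham array was above the absent controls, so the points there are measured values and not the size of a rise.

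The serum amyloid A genes, whose products associate with lipoproteins and attract leukocytes, rose in both fractions, and for none of their probe sets did the injury change differ between polysomes and total RNA by the limma test. Saa1 probe set 1450788_at read 7.22, 8.11 and 7.27 on polysomes in injured cord, against 6.00, 5.93 and 5.94 in sham cord. In total RNA it read 8.23, 8.18 and 7.43 in injured cord, against 6.37, 6.36 and 6.35 in sham cord. All injured arrays were above all sham arrays, and no sham array exceeded the absent controls in either fraction. The measured rise of 1.58 on polysomes (SE 0.21, limma adjusted p = 6.8e-05) and 1.59 in total RNA (SE 0.21, limma adjusted p = 3.7e-05) is thus known only as at least 2.10-fold on polysomes and at least 1.88-fold in total RNA. A bound sets the injured mean against the highest absent control of the sham arrays. Since both rises are bounds, no size is given for the difference between them.

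The other Saa1 probe set, 1419075_s_at, carries an accession that RefSeq gives to Saa2, and its suffix marks a design that may find related transcripts, so it cannot be assigned to Saa1 alone. It had 7.60, 8.51 and 7.67 on polysomes in injured cord, against 6.20, 6.08 and 6.17 in sham cord. In total RNA the values were 8.63, 8.46 and 7.79 in injured cord, against 6.49, 6.23 and 6.51 in sham cord. The groups were separate in both fractions, with the sham arrays again at the absent controls. The rise was at least 2.76-fold on polysomes (measured mean 7.93 in injured cord against 6.15 in sham cord, limma adjusted p = 3.5e-05) and at least 2.39-fold in total RNA (8.29 in injured cord against 6.41 in sham cord, limma adjusted p = 1.3e-05). Injured polysome replicate 2 held the highest polysome value for both Saa1 probe sets. Without it the measured polysome rise was 1.48 for 1419075_s_at and 1.29 for 1450788_at, and both still passed.

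Saa3, the serum amyloid A gene made mainly outside the liver, rose in both fractions, with a higher point estimate on polysomes. It had 8.63, 9.09 and 8.66 on polysomes in injured cord, against 7.67, 6.70 and 6.69 in sham cord. Total RNA gave 8.86, 8.78 and 8.68 in injured cord, against 7.87, 7.38 and 7.42 in sham cord. The groups were separate in both fractions, and sham replicate 1 was the highest sham value in both. Sham polysome replicates 2 and 3 lay only 0.17 and 0.25 above their highest absent control. The rise was 1.77 on polysomes (SE 0.21, limma adjusted p = 3.1e-05) and 1.22 in total RNA (SE 0.21, limma adjusted p = 0.00032). The difference between these changes, 0.56 with a 95% interval from -0.09 to 1.20, did not pass (limma adjusted p = 0.14), though it was 0.88 and passed without sham polysome replicate 1. In injured cord Saa3 averaged 8.79 ± 0.26 on polysomes and 8.77 ± 0.09 in total RNA (SD, n = 3 each), which lies 0.46 above the median probe set for that comparison. This difference was 0.47 after quantile normalization over the 12 arrays and 0.62 after centring, and passed in both (limma adjusted p = 0.0348 and 0.0103). In sham cord Saa3 was lower on polysomes than in total RNA, with a difference of -0.54 on the log2 scale (limma adjusted p = 0.032), which was no longer so after quantile normalization over the 12 arrays (0.0038) or centring (-0.04).

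Ptx3, a long pentraxin that recognises microbes and binds complement C1q, rose in both fractions. It had 7.88, 8.73 and 8.07 on polysomes in injured cord, against 6.45, 6.41 and 6.09 in sham cord. In total RNA the log2 values were 8.91, 9.07 and 8.87 in injured cord, against 6.99, 6.71 and 7.03 in sham cord. The groups were well separated, and only 1 of the 6 sham arrays was above its absent controls. On polysomes, where 1 of the 3 sham arrays was above its absent controls, the measured rise was 1.91 (SE 0.17, limma adjusted p = 3e-06). In total RNA the rise was at least 3.78-fold (measured 4.12-fold, limma adjusted p = 7.4e-07). The difference between the 2 changes did not pass, and it passed without injured polysome replicate 2 (limma adjusted p = 0.0495), but with the sham values so close to the absent controls its size is not given.

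Hp (haptoglobin, which captures free haemoglobin) had a signal close to the absent controls throughout. It read 6.53, 6.69 and 6.48 on polysomes in injured cord, against 6.27, 6.37 and 6.42 in sham cord. In total RNA it read 7.36, 7.41 and 7.08 in injured cord, against 6.90, 6.81 and 6.83 in sham cord. The groups did not overlap, but no sham array exceeded its absent controls. The rise in total RNA was at least 1.19-fold (measured 1.36-fold, limma adjusted p = 0.00041). That on polysomes was at least 1.07-fold (measured 1.16-fold, limma adjusted p = 0.046), and it passed in only 3 of the 12 fits without 1 array, those without injured polysome replicate 3 and injured total replicates 2 and 3.

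A2m, an alpha-2-macroglobulin that traps proteases, rose in both fractions and less on polysomes. It had 10.33, 10.36 and 10.05 on polysomes in injured cord, against 9.53, 9.11 and 9.40 in sham cord. Its total RNA values were 11.79, 11.43 and 11.32 in injured cord, against 10.07, 9.71 and 9.93 in sham cord. No injured array overlapped a sham array in either fraction. The rise was 0.90 on polysomes (SE 0.14, limma adjusted p = 0.00017) and 1.61 in total RNA (SE 0.14, limma adjusted p = 9.5e-07). The polysome change was smaller, with a difference of -0.71 on the log2 scale (SE 0.19, limma adjusted p = 0.0079). That difference passed in 12 of 12 fits without 1 array but was -0.36 and did not pass after quantile normalization within fractions.

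Cp encodes ceruloplasmin, the copper ferroxidase of plasma, which also exists in a membrane-anchored form on astrocytes. Its 7 probe sets gave different answers, and 6 of them cite the same accession. In total RNA 6 of the 7 were higher after injury, by 0.42 to 1.67 on the log2 scale, and the other, 1417496_at, did not pass. On polysomes 3 of the 7 were higher. Probe set 1417494_a_at had 9.84, 10.37 and 9.53 on polysomes in injured cord, against 8.90, 8.21 and 8.61 in sham cord. Total RNA arrays gave 10.54, 10.43 and 9.96 in injured cord, against 8.95, 8.57 and 8.88 in sham cord. The groups were separate in both fractions, and the rise was 1.34 on polysomes (SE 0.21, limma adjusted p = 0.00022) and 1.51 in total RNA (SE 0.21, limma adjusted p = 5.3e-05). Their difference was -0.17 (95% interval -0.80 to 0.47).

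Probe set 1448735_at of Cp behaved otherwise. It had 6.71, 7.03 and 6.68 on polysomes in injured cord, against 6.91, 6.86 and 7.0 in sham cord. In total RNA it had 8.16, 8.51 and 8.25 in injured cord, against 7.65, 7.67 and 7.91 in sham cord. The polysome groups overlapped and the total RNA groups did not. All polysome arrays of 1448735_at lay close to the absent controls, 0.22 to 0.59 above the highest of them. The change was -0.11 on polysomes (limma adjusted p = 0.43) and 0.57 in total RNA (limma adjusted p = 0.00047), and the difference of -0.68 passed (limma adjusted p = 0.0022). Of the remaining Cp probe sets, 1417497_at (-0.47), 1448734_at (-0.83) and 1455393_at (-0.70) also had a smaller change on polysomes that passed, whereas 1417495_x_at (-0.44) and 1417496_at (0.46) did not pass. Without injured polysome replicate 2 the difference of 1417495_x_at was -0.65 and passed (limma adjusted p = 0.0177). After quantile normalization within fractions 1448734_at (-0.62, limma adjusted p = 0.0724) and 1455393_at (-0.46, limma adjusted p = 0.112) did not pass. The difference of 1448734_at passed in 5 of the 12 fits without 1 array, and was lost without replicate 1 or 3 of either polysome group, injured total replicate 1 or 2, or sham total replicate 2. That of 1455393_at passed in 7, and was lost without injured polysome replicate 3, sham polysome replicate 1, injured total replicate 1 or 2, or sham total replicate 2. Probe set 1417496_at had 6.75, 7.35 and 6.59 on polysomes in injured cord, against 6.75, 6.53 and 6.67 in sham cord, and in total RNA 6.92, 6.78 and 6.82 in injured cord against 7.05, 6.98 and 7.11 in sham cord. Its total RNA values were at the level of the absent controls. The polysome values of 1417497_at were also close to them, 0.25 to 0.48 above the highest. Which Cp transcripts or positions each probe set finds was not analysed here.

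Over all members, the polysome change was smaller than the total RNA change for 7 of the 15 probe sets, those of Lcn2, Serpina3n, A2m and 4 of Cp, and greater for none (1 at an unadjusted p under 0.05, Cp 1417496_at). Of all tested probe sets 37.0% had a smaller and 13.5% a greater change on polysomes, so the share of members, 7 of 15, lies not far above the background. The median difference was -0.44 over the 15 and -0.14 over all. Without injured polysome replicate 2 the count was 10. As deposited, 26.8% of all calls in this comparison were positive, against 47.8% after quantile normalization over the 12 arrays and 44.7% after centring. For these genes 7 were smaller on polysomes after quantile normalization over the 12 arrays and 5 within fractions, where Hp was gained and A2m and 2 Cp probe sets were lost. After centring 7 were smaller and 1 was greater, Cp 1417496_at (0.56, limma adjusted p = 0.0129). The same probe set passed as greater without injured polysome replicate 1 (0.53) or 3 (0.61).

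**Figure D3:**
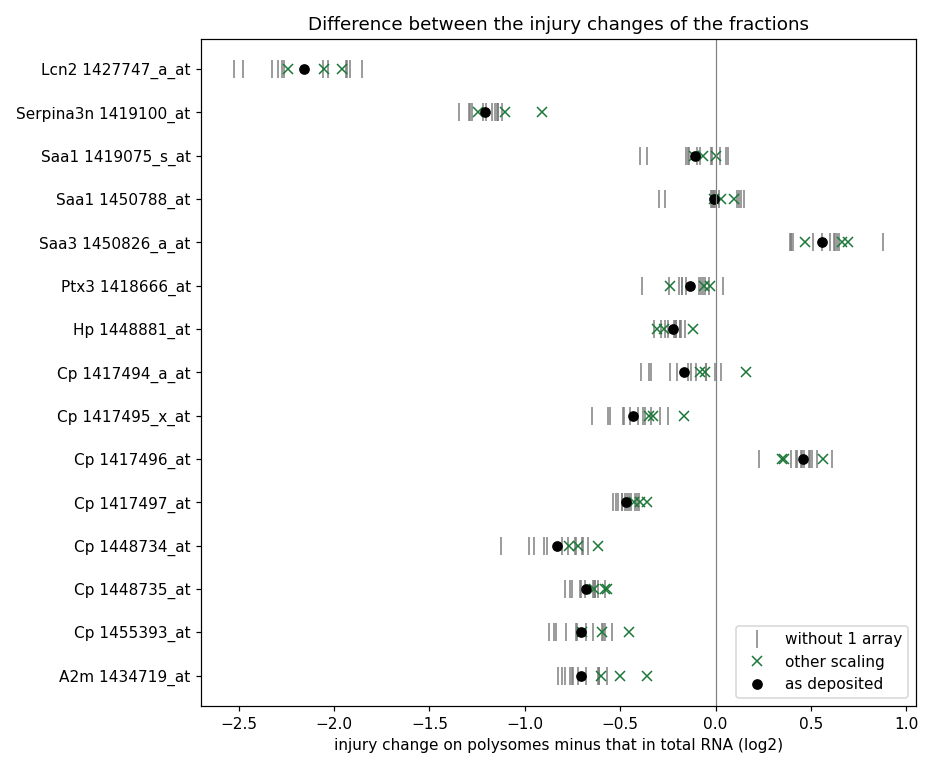
The injury change on polysomes minus that in total RNA (log2, horizontal axis) for each probe set, as deposited (circles), without each of the 12 arrays in turn (ticks) and after 3 other scalings (crosses). Lcn2 runs from -2.53 to -1.86 over the fits without 1 array, and no mark of Lcn2, Serpina3n or A2m reaches 0. The marks of Saa1, Ptx3 and Hp rest on sham values at or near the absent controls.

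Polysome RNA was lower than total RNA for 10 of the 15 probe sets in injured cord and for 11 of the 15 in sham cord, and on the deposited scale was higher for none in either (0 at an unadjusted p as well). On the deposited scale 73.7% of all tested probe sets were lower and 12.9% higher in injured cord, and 62.6% were lower and 18.5% higher in sham cord, so these counts are near the background. The median difference of the 15 was -1.17 in injured cord and -0.54 in sham cord. After subtraction of the median of all probe sets these become -0.73 in injured cord and -0.18 in sham cord. The share of positive calls over all probe sets depended on the scaling. It was 14.8% as deposited, 53.3% after quantile normalization over the 12 arrays and 65.7% after centring in injured cord, and 22.9%, 53.8% and 66.6% in sham cord. In injured cord 8 of the 15 were lower and 2 higher on polysomes, both after quantile normalization over the 12 arrays and after centring. The 2 were Saa3 and Cp 1417496_at, the second at 0.56 after quantile normalization and 0.66 after centring. On the deposited scale without injured polysome replicate 2, 14 of the 15 were lower in injured cord. Those added were Saa1 1419075_s_at (-0.66) and 1450788_at (-0.70), and Cp 1417494_a_at (-0.62) and 1417496_at (-0.17). The sham count of these genes dropped to 4 after quantile normalization and to 3 after centring, with 1 of the 3 higher. In sham cord, a fit with the replicate number as a block added both Saa1 probe sets and Cp 1417494_a_at (-0.23), giving 14 of 15. No sham array of either Saa1 probe set exceeded the absent controls, so no size is given for them. Hp and Ptx3, counted among the 11 lower in sham cord, also had sham values at or near the absent controls.

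**Figure D4:**
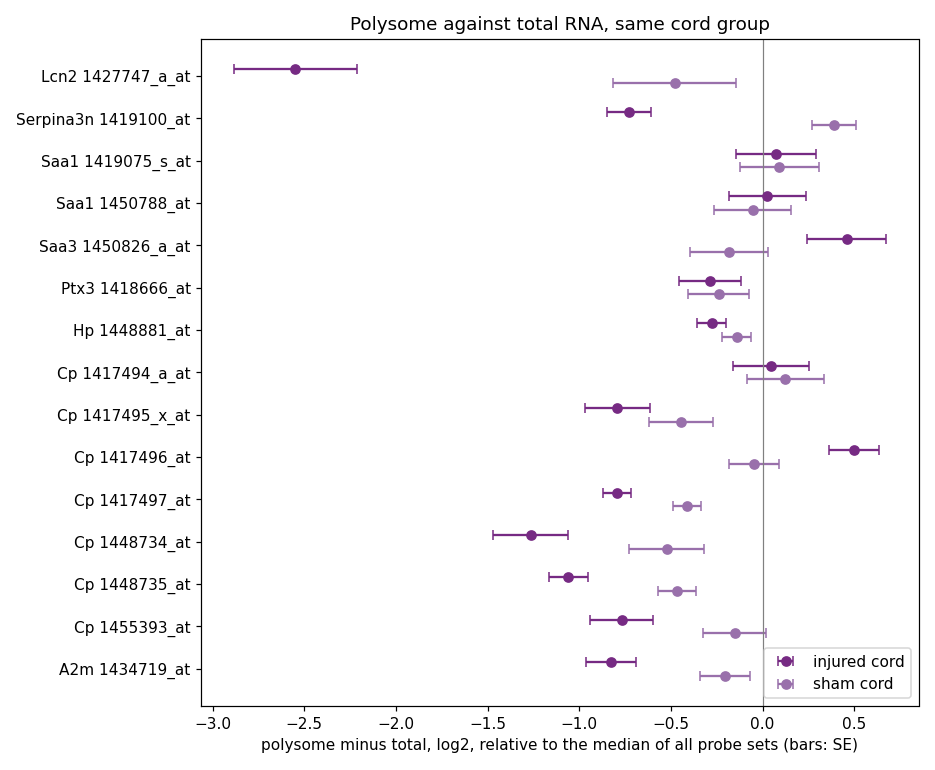
Polysome minus total RNA (log2, horizontal axis) within injured and within sham cord, relative to the median of all tested probe sets in the same comparison, with bars for the limma standard error. Lcn2 in injured cord lies at -2.55, and Saa3 lies at 0.46 in injured cord and -0.18 in sham cord. The sham points of Saa1, Ptx3 and Hp rest on values at or near the absent controls.

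Other genes of the acute phase system, in lists chosen with earlier results of these data known, were counted by the brightest probe set of each gene. Over all 10370 genes counted that way, 13.5% were higher and 24.9% lower on polysomes after injury, and 41.8% were higher and 17.9% lower in total RNA. Of 15 other positive acute phase genes tested, 9 were higher and 1 lower on polysomes after injury, and 13 were higher and 1 lower in total RNA, with medians of 0.39 and 0.82. Mt1 and Mt2, the metallothioneins that bind zinc and copper, rose by 1.37 and 1.44 on polysomes and by 1.38 and 1.69 in total RNA. Cd14, a co-receptor for bacterial lipopolysaccharide, rose by 0.97 on polysomes (limma adjusted p = 0.00016) and 2.27 in total RNA (limma adjusted p = 9.7e-08). Steap4, a metalloreductase, rose by 0.91 in total RNA. Saa2 rose at least 1.26-fold on polysomes and at least 1.24-fold in total RNA, its sham arrays lying under the absent controls. Of 6 negative acute phase genes, those whose liver expression falls in inflammation, 0 were higher in either fraction in limma, 1 was lower on polysomes and 3 were lower in total RNA. At an unadjusted p under 0.05, 1 was higher on polysomes and 0 in total RNA. Rbp4, the retinol carrier, fell by 0.47 on polysomes. Ttr, the thyroxine carrier, was called lower in total RNA, at 6.92 in injured and 7.09 in sham cord. The highest absent control averaged 6.85 and 7.04 in those groups, so Ttr gets no fold. Alb and Ahsg were at the level of the absent controls and get no fold either. All 3 genes called lower in total RNA thus rest on values at or near that level.

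Of 26 inducing cytokines, receptors and transcription factors, 13 were higher and 4 lower on polysomes, and 19 were higher and 4 lower in total RNA. Socs3, a feedback inhibitor induced by STAT3, rose by 2.38 on polysomes and 3.68 in total RNA, and its polysome change was smaller, with a difference of -1.30 on the log2 scale (limma adjusted p = 0.0026). In each fraction 2 of its 3 sham arrays were above the absent controls. Osmr, a receptor subunit for oncostatin M, rose by a measured 1.35 on polysomes, where only 1 of the 3 sham arrays was above the absent controls, and by 2.41 in total RNA. The transcription factor genes Cebpd, Cebpb and Stat3 rose in both fractions. Cebpd rose by 2.64 on polysomes and 2.60 in total RNA, Cebpb by 1.35 and 1.57, and Stat3 by 1.07 and 1.19, and none of their differences between the fractions passed. Il6 itself, named after its values were seen, rose at least 1.86-fold in total RNA, where no sham array exceeded the absent controls. Of 22 binding partners, receptors and iron-handling genes, 4 were higher and 5 lower on polysomes, and 12 were higher and 5 lower in total RNA, which is not far from the shares over all genes. Hmox1, the haem-degrading oxygenase, rose by 1.21 on polysomes and 1.72 in total RNA. Slc22a17, described as a receptor for lipocalin 2, fell by 0.67 on polysomes (limma adjusted p = 1.1e-05) and was at 0.11 in total RNA (limma adjusted p = 0.17). Cd163, the receptor for haptoglobin with haemoglobin, rose by a measured 0.46 on polysomes, with 1 of the 3 sham arrays above the absent controls, and at least 1.42-fold in total RNA.

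**Figure D5:**
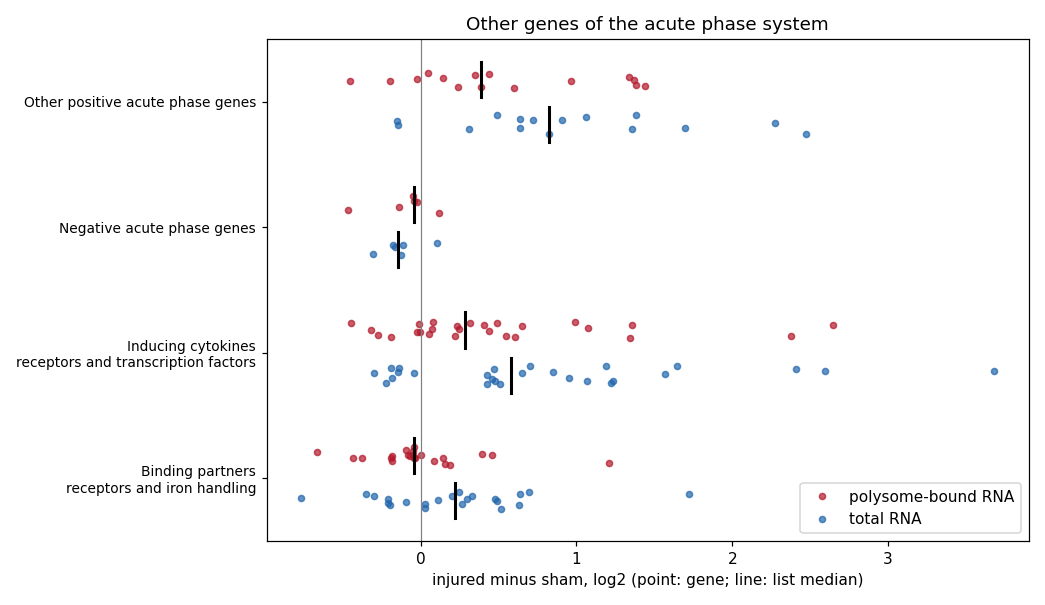
Injured minus sham difference (log2, horizontal axis) of every tested gene of 4 lists around the acute phase response, on polysomes and in total RNA, with vertical lines at the list medians. The positive acute phase list has medians of 0.39 on polysomes and 0.82 in total RNA, and the rightmost point, at 3.68, is Socs3 in total RNA.

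Markers of cells that make these proteins moved with injury, but not all in the same direction. The summed linear level of 12 neutrophil markers was 2044 to 3460 on injured against 1668 to 1928 on sham polysome arrays, and 4604 to 7256 on injured against 2947 to 3838 on sham total RNA arrays. S100a8 and S100a9 rose by 1.37 and 1.59 in total RNA, while the granule genes Ngp and Camp fell by 0.64 and 0.57 there, and Mmp8 and Mpo were near the absent controls. S100a8 and S100a9 were the brightest neutrophil markers in every group and weigh most in the sums. Of 12 neutrophil markers 5 were higher and 5 lower in total RNA, where 41.8% of all genes were higher and 17.9% lower. Of 11 monocyte and macrophage markers 8 were higher and 0 lower there (0 at an unadjusted p), with sums of 7372 to 8828 in injured against 5305 to 5802 in sham cord, and of 9 astrocyte markers 7 were higher and 0 lower (0 at an unadjusted p), with sums of 21411 to 22200 in injured against 15917 to 16857 in sham cord. On polysomes 4 of the monocyte and macrophage markers were higher and 3 lower (median change 0.17), and 4 of the astrocyte markers were higher and 3 lower (median change 0.24). Of the 12 neutrophil markers 3 were higher on polysomes and 2 lower, Ngp (-0.37) and Camp (-0.32), with a median change of -0.01. Over all genes 13.5% were higher and 24.9% lower on polysomes. There the monocyte sums were 2276 to 2902 in injured against 2926 to 3251 in sham cord, and the astrocyte sums 9596 to 9994 in injured against 9719 to 11064 in sham cord. The part of these cells in the changes of Lcn2, Saa3, Ptx3 and Hp was not tested. Of the 7 hepatocyte markers tested, Alb and Tat were not above the absent controls on any injured array in either fraction, whereas Ttr, Apoa1, Apoa2 and Fga were above them on all injured arrays in both. Fga, a fibrinogen chain, was the only one called higher, at least 1.53-fold on polysomes (limma adjusted p = 0.00097) and at least 1.49-fold in total RNA (limma adjusted p = 0.00066). In total RNA 4 of the 7 hepatocyte markers, Alb, Tat, Ttr and Ahsg, were called lower, where 17.9% of all genes were lower. On polysomes 0 were lower, against 24.9% of all genes. The sum of the 7 was 679 to 743 on injured against 606 to 633 on sham polysome arrays, and 844 to 1005 on injured against 835 to 871 on sham total RNA arrays.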

How the data were processed

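Total and polysome-bound RNA of mouse spinal cord was measured on 12 Affymetrix arrays. The deposited values are log2 expression values, 1 per probe set and array, a scale read from their range of 5.26 to 14.65. How the authors corrected background, summarised probes and normalized is not given in the sources used here. The values were used as deposited. The array annotation supplied with the series gave 1 gene symbol for 20380 of 22690 probe sets, several for 691 and none for 1619, among them 64 control probe sets. A probe set was tested if 3 or more arrays put it above their 25th percentile.

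Groups came from the sample titles. A mean per group was fitted with limma 3.58.1 in R 4.3.3, leaving 8 residual degrees of freedom, and variances were moderated along an intensity trend. The 5 comparisons were injured against sham in each fraction, the difference between those changes, and polysome against total RNA in injured and in sham cord. Two-sided p-values were Benjamini-Hochberg adjusted across 16555 probe sets, and 0.05 was the threshold. The fits were tested on simulated data. On arrays the number of samples limits the precision.

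The members and lists were chosen with earlier results of these data known. All member probe sets are named, with up to 4 genes of each list by lowest adjusted p and the 3 genes whose log2 values correlate most with each member over 12 arrays. Since each homogenate gave both fractions, arrays of the fractions may come from the same cords, and the main fit treats them as independent. Equal replicate numbers of polysome and total RNA deviated together in sham cord (r from 0.14 to 0.19 over probe sets) but not in injured cord (-0.09 to 0.06), and the labels do not say that a number marks 1 animal. A sham fit with the number as a block was added after this check. Other alternatives were 2 filters, 3 scalings, array weights, other moderation, 1 probe set a gene, a 2-fold minimum, 2 further blocks, fits of only the compared groups, and leaving out each array.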

Additional observations from a re-analysis of the deposited data

Results flagged for a closer look

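The following probe sets had an injury change on polysomes that differed from that in total RNA by the limma test of the difference itself, each with a smaller change on polysomes. The difference (polysome change minus total RNA change, log2) was -2.16 for Lcn2, -1.21 for Serpina3n and -0.71 for A2m. For Cp it was -0.47 for 1417497_at, -0.83 for 1448734_at, -0.68 for 1448735_at and -0.70 for 1455393_at. The polysome values of 1417497_at and 1448735_at, and some sham values of Lcn2, lay close to the absent controls. RNA integrity moved with the same groups, with a Gapdh 3′ minus 5′ difference of 2.83 on injured and 0.87 on sham polysomes, and its part in these results was not tested.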

How the results depend on the processing

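For the count of the 15 probe sets passing in total RNA after injury, 14 as reported, leaving out 1 array gave 14 to 15, and the 15th, Cp 1417496_at without injured polysome replicate 2, was lower (-0.21), as it also was in a fit of only the compared groups. Leaving out 1 array gave 9 to 12 on polysomes (10 as reported), 5 to 10 for the difference between the changes (7), 10 to 14 for polysome against total RNA in injured cord (10) and 7 to 12 in sham cord (11), with 7 without sham polysome replicate 2. With 1 probe set a gene, which leaves 8 to count, the counts were 8 in total RNA, 3 for the difference, 5 in injured cord and 5 in sham cord. With a 2-fold minimum they were 6 on polysomes, 2 for the difference and 0 in sham cord, where limma called 11 without that minimum. In sham cord quantile normalization over the 12 arrays left 4 and centring left 3. With the replicate number as a block for all groups the counts were 14 in total RNA, 11 on polysomes, 7 for the difference, 10 in injured cord and 11 in sham cord. That block also joins injured and sham arrays, which come from different mice. With the pairing used for sham arrays alone the sham count was 14. The sham polysome-minus-total difference turned positive under quantile normalization for Saa3 (0.0038), Ptx3 (0.0082), Hp (0.11) and Cp 1417496_at (0.21), and under centring for Hp (0.00078) and Cp 1417496_at (0.096). Without injured polysome replicate 2, Cp 1417496_at had -0.17 for polysome against total RNA in injured cord. The cause was not tested. Over all single probe sets and alternatives, 1605 results kept direction and side of the threshold, 35 that were called in neither fit changed sign, 50 lost the call, 46 gained one and 7 others turned direction, with a call on one side. Signal close to the absent controls limits Saa1, Ptx3 and Hp in sham cord.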

Other observations

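The genes whose log2 values ran most like each member over the 12 arrays are given as a description, since all 12 values share the 4 groups and the arrays' differing levels. For Lcn2 these were Srsf3 (Pearson r = 0.991), a splicing factor, Lrg1 (0.986), a secreted glycoprotein that is itself an acute phase protein, and Aldh1a3 (0.985), which makes retinoic acid. The mean of Aldh1a3 was under that of the highest absent control in every group, for example 6.74 against 6.85 in injured total RNA. Lrg1 was under it in sham cord, at 6.30 against 6.46 on polysomes and 7.01 against 7.04 in total RNA. For Serpina3n they were Fkbp5 (0.989), a glucocorticoid-induced chaperone, Socs3 (0.984) and Hmox1 (0.983). For A2m they were Lrrfip1 (0.993), Casc3 (0.990) and Osmr (0.985). Ptx3 ran most like Klf13 (0.989), Hp like Il4ra (0.988), the probe set 1419075_s_at of Saa1 and possibly Saa2 like Osbpl11 (0.980), Cp like Cnppd1 (0.977) and Saa3 like Mark1 (0.957).

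Homeostatic microglia markers, of which 7 were tested, had 0 higher and 5 lower after injury in each fraction in limma (0 higher at an unadjusted p under 0.05 as well). Over all genes 24.9% were lower on polysomes and 17.9% in total RNA. P2ry12, a purine receptor, was at least 1.38-fold lower on polysomes, where no injured array was above the absent controls, and fell by 0.66 in total RNA. Aqp4, the astrocyte water channel, fell by 1.21 on polysomes, where Gfap rose by 0.41.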
